A study of Homo sapiens with 8 samples.

Results

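The semaphorins, plexins and neuropilins were examined as 1 family of guidance ligands and receptors in SK-UT-1 cells, an established line from a human uterine leiomyosarcoma (uLMS). The members were all genes of the count table whose symbols name a semaphorin of classes 3 to 7, a plexin of classes A to D, NRP1 or NRP2, which gave 31 of 60282 genes: 20 semaphorins, 9 plexins and 2 neuropilins. Cells were treated for 48 h with 5 µM TP-472, a small-molecule inhibitor of the bromodomain proteins BRD9 and BRD7, or with DMSO vehicle, and RNA was sequenced from 4 libraries per group. Both groups carried the same unmodified cell line, and the compound is the difference that the sample descriptions name. They give no batch and do not say whether the 4 libraries of a group came from separate cultures. The study states for its experiments in general that biological replicates were used, without saying what separated them here, so p-values measure the spread between these libraries, which may be technical. The single line stands for 1 tumor.

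Semaphorins are secreted or membrane-bound proteins that share a large amino-terminal sema domain. Plexins are their transmembrane receptors, which act on small GTPases such as those of the Rap and R-Ras kinds through their intracellular part and so change the actin cytoskeleton and integrin adhesion. Neuropilins have a short cytoplasmic tail and serve as co-receptors, with plexins for most secreted class 3 semaphorins and with VEGF receptors for some VEGF isoforms. The family was found in axon guidance and is also known from vessel growth, immune cells and the migration of tumor cells.

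Library totals ran from 32574672 to 36634103 counts with vehicle and from 36246277 to 38545464 with TP-472. Levels are CPM, counts scaled to library size with edgeR's TMM factors, and 4 values in a row are replicates 1 to 4. Changes are log2 fold changes, TP-472 over vehicle, given as estimate ± standard error. Vehicle replicate 3 stood apart from the other libraries: its median Spearman correlation with the rest of its group was 0.914, against 0.988 to 0.989 for vehicle replicates 1, 2 and 4 and 0.993 to 0.997 for the TP-472 replicates. In that library genes in the highest GC quartile lay a median of 0.87 above the other vehicle libraries on the log2 scale, and those in the lowest quartile 0.66 below. Of the 21 members tested below, 17 (81.0%) were highest in vehicle replicate 3 among the vehicle libraries, against 43.2% of all genes tested and 90.0% of those in the highest GC quartile. Called changes of the family and its partners are therefore also given without this library, and those of the cell type markers below are with all libraries. Of the markers of the labelled smooth muscle origin, CALD1 was at 199 CPM with vehicle and 191 CPM with TP-472, and ACTA2 at 159.9 CPM with vehicle and 109 CPM with TP-472 (−0.55, adjusted p = 0.00426), under 1.5-fold. TAGLN (−0.67, adjusted p = 0.00397) and DES (−2.36, adjusted p = 1.89e-04) were called lower. DES, at 3.24 CPM with vehicle and 0.628 CPM with TP-472, met the limit on low values that is given below through the vehicle libraries alone and so had to differ. SMTN was at 81.3 CPM with vehicle and 50.9 CPM with TP-472, and its vehicle mean was 55.8 CPM without vehicle replicate 3. CNN1 was at 1.25 CPM with vehicle and 1.38 CPM with TP-472. Neither SMTN nor CNN1 was called. MYH11, at 0.00701 CPM with vehicle and 0.235 CPM with TP-472, and MYOCD, at 0.0417 CPM with vehicle and 0.0872 CPM with TP-472, were too low to test. The 8 smooth muscle markers summed to 437 to 519 CPM with vehicle and 369 to 378 CPM with TP-472, led by CALD1. The endothelial markers PECAM1, VWF, CDH5 and KDR, 0 of 4 tested, summed to 0.0553 to 0.143 CPM with vehicle and 0.413 to 0.58 CPM with TP-472, led by VWF, and CDH5 and KDR were at 0 counts in every vehicle library. The immune markers, 0 of 4 tested and led by ITGAM, summed to 1.11 to 1.56 and 1.86 to 2.4 CPM, with CD3E at 0 throughout. The epithelial markers, 2 of 4 tested and led by KRT18, summed to 8.82 to 11.6 and 16.9 to 20.7 CPM. KRT18 rose (1.08, adjusted p = 7.26e-04), KRT8 was not called, CDH1 was at 0.415 CPM with vehicle and 0.414 CPM with TP-472, and EPCAM was at 0.729 CPM with vehicle and 0.244 CPM with TP-472. The neuronal markers, 1 of 4 tested, summed to 320 to 518 CPM with vehicle and 371 to 477 CPM with TP-472, almost all of it TUBB3, and the groups overlapped. The uterine markers, 2 of 4 tested and led by HOXA13, summed to 3.003 to 4.12 and 4.75 to 5.52 CPM, and HOXA11 rose (1.14, adjusted p = 0.0100). The part of these markers in the results was not tested.

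Most family members that could be tested were lower in TP-472-treated uLMS cells, and SEMA7A and NRP2 were higher. Of the 31 members, 21 had over 1 CPM in 4 or more of the 8 libraries and entered the test, edgeR's quasi-likelihood F, fitted and adjusted over all 14073 genes that met this limit. A call required a change over 1.5-fold together with an adjusted p-value under 0.05. Of the 21 tested members 14 were called, where 26.9% of all genes tested were: 12 were called lower (background 14.9%) and 2 higher (background 12%, 1693 of 14073 genes). The median log2 fold change of the tested members was −1.0, and −0.026 over all genes. Without the limit on the fold change 16 members had an adjusted p-value under 0.05, where 36.3% of all genes did. NRP2 passed the limit on low values through the TP-472 libraries alone and PLXNA4 through the vehicle libraries alone, so both had to differ, and of the other 19 members 12 were called. As RNA came from whole cultures, fewer cells expressing a gene and less RNA per cell cannot be told apart.

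The count was similar without vehicle replicate 3, but the median change was smaller. In that fit 12 of the 21 members were called, 10 lower and 2 higher, where 25.5% of all genes were called, and all 12 were among the 14. The median log2 fold change of the members was −0.58, against −2.14e-05 over all genes. PLXNB1 and SEMA3G were no longer called in that fit. Leaving out vehicle replicate 1 in place of replicate 3 gave 9 called members, where 22.1% of all genes were called, and leaving out TP-472 replicate 1, 2 or 3 gave 8 each, where 20.3%, 19.4% and 19.1% of all genes were. With each library's trend of expression on GC content removed, 14 members were called, where 28.3% of all genes were, with 11 of them shared with the first 14, and the median was −0.70, against −0.029 over all genes. SEMA3B, SEMA4B and SEMA6B were called under each of the alternatives in which they were fitted, leaving aside a test against a 1.5-fold change. Under that test SEMA3B was still called. NRP2 and PLXNA4 were called in all fits that held them, that test included. As both had to differ to meet the limit on low values, their calls do not measure stability.

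**Figure D1:**
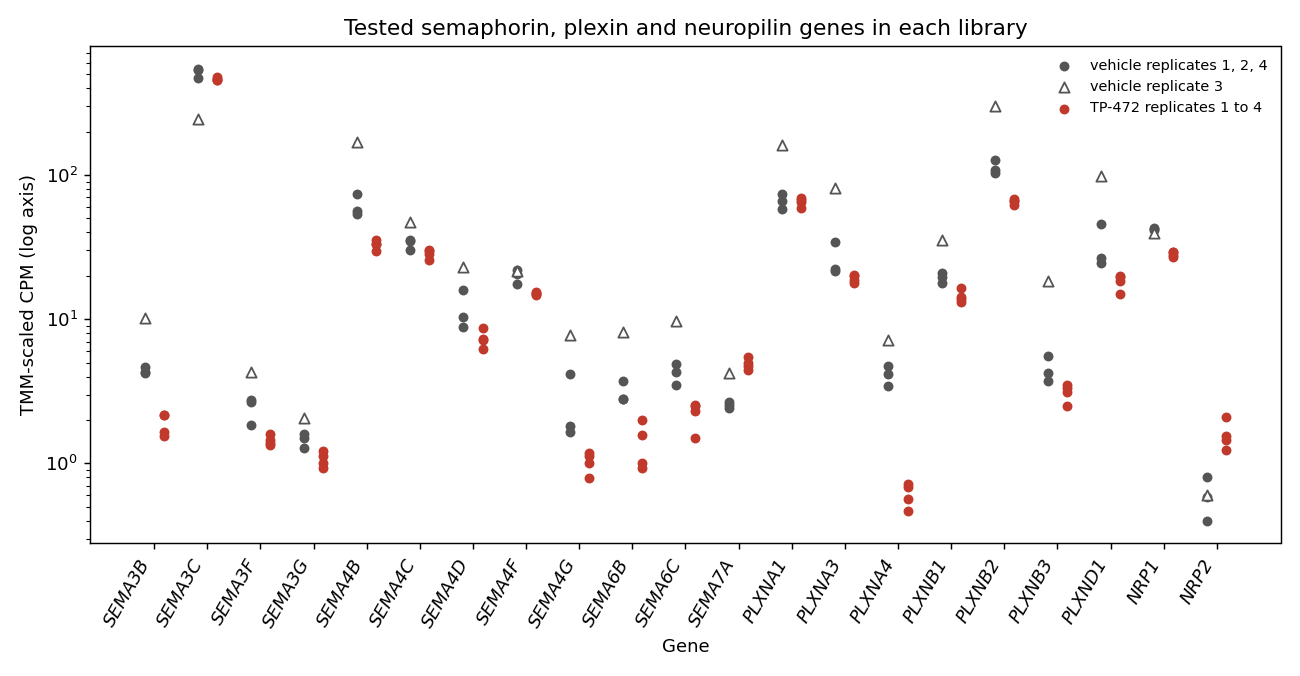
TMM-scaled CPM (log axis) of the 21 tested members in each library, with vehicle in grey and TP-472 in red. Vehicle replicate 3, drawn as an open triangle, is the highest vehicle library for 17 members, and the groups do not overlap for 19.

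The groups did not overlap for 19 of the 21 tested members, where 45.4% of all genes tested showed no overlap. Without NRP2 and PLXNA4, whose separation the limit on low values fixed, the count was 17 of 19, with 16 lower and 1 higher. With NRP2 and PLXNA4 included, TP-472 libraries were the lower ones for 17 members (background 21.6%) and the higher ones for SEMA7A and NRP2 (background 23.8%). PLXNA1 and SEMA3C were the members whose groups overlapped. The plot of values by library shows how little the TP-472 libraries spread and how far the open triangles stand from the other vehicle points.

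The stretches upstream of the RefSeq start sites (GRCh38.p14) are shown for the members that rose, SEMA7A and NRP2, and for PLXNB2 and SEMA4B, the most abundant plexin and membrane-bound semaphorin that fell. RefSeq gives SEMA4B 3 start sites and SEMA7A 2, and the first by position among the windows nearly free of annotated exon bases was taken. The windows not shown hold 0 and 5 GC boxes for SEMA4B and 4 for SEMA7A. Each run goes 5′ to 3′ toward the start site and leaves out bases that GENCODE 29 counts as exon. Capitals mark the GC box GGGCGG, the core letters bound by Sp1 and related factors, on either strand. The stretch of SEMA7A lies just upstream of the annotated gene, and those of NRP2, PLXNB2 and SEMA4B lie within the span of the annotated gene, outside its exons.
SEMA7A (chr15:74433959-74434208, - strand): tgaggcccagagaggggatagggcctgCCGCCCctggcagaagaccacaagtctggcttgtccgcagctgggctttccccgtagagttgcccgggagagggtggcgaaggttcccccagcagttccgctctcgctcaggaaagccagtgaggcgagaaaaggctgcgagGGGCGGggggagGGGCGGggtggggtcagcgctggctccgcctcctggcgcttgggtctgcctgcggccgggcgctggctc
NRP2 (chr2:205682251-205682499, + strand): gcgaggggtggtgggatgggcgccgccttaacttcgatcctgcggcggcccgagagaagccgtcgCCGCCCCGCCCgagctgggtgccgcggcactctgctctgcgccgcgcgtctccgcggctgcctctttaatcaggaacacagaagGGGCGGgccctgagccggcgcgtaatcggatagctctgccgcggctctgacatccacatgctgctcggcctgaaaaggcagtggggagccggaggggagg
PLXNB2 (chr22:50301670-50301919, - strand): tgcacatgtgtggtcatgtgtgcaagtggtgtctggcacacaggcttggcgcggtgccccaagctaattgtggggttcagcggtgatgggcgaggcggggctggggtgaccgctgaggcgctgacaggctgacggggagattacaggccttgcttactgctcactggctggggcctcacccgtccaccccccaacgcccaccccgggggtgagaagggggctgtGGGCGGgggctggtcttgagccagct
SEMA4B (chr15:90184670-90184917, + strand): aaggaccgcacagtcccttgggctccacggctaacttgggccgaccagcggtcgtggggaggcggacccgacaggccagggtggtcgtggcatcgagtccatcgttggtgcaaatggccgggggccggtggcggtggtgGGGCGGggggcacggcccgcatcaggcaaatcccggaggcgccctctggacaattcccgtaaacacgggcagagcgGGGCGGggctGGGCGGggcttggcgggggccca
The stretches of SEMA7A, NRP2 and SEMA4B hold 3 GC boxes each, a pair of which overlap in NRP2, and that of PLXNB2 holds 1. Their GC contents are 69.9% for NRP2, 71.8% for SEMA4B and 66.4% for PLXNB2, and SEMA7A lies between the latter pair.

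RefSeq start sites were found for 27 of the 31 members, with 48 windows of 250 bases, some of them overlapping alternatives of 1 gene. The members not matched were NRP1, SEMA3A, SEMA6A and SEMA6B. A GC box was present in 62.5% of these windows and in 42.6% of the 35116 windows of all genes. The median GC content was 64.8%, against 58.0%. The TATA box TATAAA was found in 1 window, of SEMA3E, where 10.7% of all windows hold it. The CCAAT box CCAAT was in 22.9% (all windows 32%), the E-box CACGTG in 6.25% (6.34%) and the AP-1 site TGANTCA in 2.08% (6.57%), each on both strands. These are matches of letters and not measured sites.

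Among secreted class 3 semaphorins, SEMA3C was the most abundant and was not called, while SEMA3B and SEMA3F fell and SEMA3G lay at the thresholds. SEMA3C (ENSG00000075223.14, chr7:80742538-80922359, positions on GRCh38 in GENCODE 29) encodes a secreted ligand that binds neuropilins together with plexins of classes A and D. It was measured at 469, 548, 247 and 533 CPM with vehicle and at 463, 457, 459.6 and 477 CPM with TP-472. The TP-472 values lay within the vehicle range, and vehicle replicate 3 was the lowest library of all. The difference was a change of 0.047 ± 0.22 (adjusted p = 0.882), and −0.15 (adjusted p = 0.0890) without vehicle replicate 3, so its sign turned with that library and it passed in neither fit.

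SEMA3B (ENSG00000012171.20, chr3:50267558-50277546), a ligand described as a tumor suppressor on the short arm of chromosome 3, was at 4.70, 4.33, 10.2 and 4.23 CPM with vehicle. With TP-472 it was at 1.65, 1.55, 2.16 and 2.16 CPM, 3.12-fold lower, with a change of −1.64 ± 0.32 (adjusted p = 0.00499). The groups were separate, and without vehicle replicate 3 the change was −1.23 (adjusted p = 1.94e-04). SEMA3F (ENSG00000001617.12, chr3:50155045-50189075), which signals mainly through NRP2, lies 78482 bases from SEMA3B on the same strand. It fell from 2.74, 1.83, 4.30 and 2.66 CPM with vehicle to 1.34, 1.38, 1.61 and 1.45 CPM with TP-472, with a change of −1.0 ± 0.26 (adjusted p = 0.0167). No library of a group reached into the range of the other, and without vehicle replicate 3 the change was −0.74 (adjusted p = 0.00750). After removal of the GC trend it was −0.58 (adjusted p = 0.0169), just under 1.5-fold, and without TP-472 replicate 1 or 2 the adjusted p was up to 0.0509. SEMA3G (ENSG00000010319.7, chr3:52433053-52445085) had the lowest mean over the 8 libraries among members that passed the limit in both groups, at 1.49, 1.61, 2.08 and 1.29 CPM with vehicle and 1.21, 1.01, 1.13 and 0.922 CPM with TP-472. It lay close to both thresholds, with a change of −0.59 ± 0.20 (adjusted p = 0.0486). It was called in 3 of the 19 alternatives in which it was fitted. The change was −0.45 (adjusted p = 0.0611) without vehicle replicate 3 and −0.33 (adjusted p = 0.107) after removal of the GC trend, and DESeq2, limma-voom and 6 of the 7 fits that left out another library did not call it either.

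SEMA3B, SEMA3F and SEMA3G on chromosome 3 have GC contents of 58.4% to 64.8%. With all libraries they were all called lower, where 14.9% of all genes and 25.6% of those in the highest GC quartile were. Without vehicle replicate 3 SEMA3G was not called, and after removal of the GC trend neither SEMA3F nor SEMA3G was. The 4 genes on chromosome 7, SEMA3A, SEMA3C, SEMA3D and SEMA3E, have GC contents of 34.9% to 39.4%, and SEMA3C alone passed the limit on low values. SEMA3A, the founding repellent of axons, had 3, 12, 12 and 6 counts with vehicle and 4, 1, 0 and 6 with TP-472 (exact permutation test, two-sided, p = 0.114). SEMA3D had 4, 3, 7 and 10 counts against 1, 8, 4 and 0 (exact permutation test, two-sided, p = 0.314). SEMA3E had no more than 1 count in any library.

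All 5 tested members of class 4, which are transmembrane ligands, had lower means with TP-472, where 7293 of all 14073 genes tested had a change below 0. The highest GC quartile, where the median log2 fold change over all genes was −0.41, holds SEMA4B, SEMA4C and SEMA4G. SEMA4B, SEMA4D and SEMA4G passed the test, where 14.9% of all genes were called lower. SEMA4B (ENSG00000185033.14, chr15:90160604-90229679) was the most abundant of them. Its level was 74.1, 53.8, 170.2 and 56.3 CPM with vehicle and 35.3, 33.3, 29.9 and 33.1 CPM with TP-472, 2.69-fold lower, with a change of −1.43 ± 0.35 (adjusted p = 0.0136). Vehicle replicate 3 was by far the highest, but vehicle replicates 1, 2 and 4 were also above the TP-472 libraries, and without replicate 3 the change was −0.90 (adjusted p = 1.27e-04).

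SEMA4D (ENSG00000187764.11, chr9:89360787-89498130), the ligand of PLXNB1 also known as CD100, was at 15.9, 8.86, 23.1 and 10.3 CPM with vehicle and 7.18, 7.34, 6.23 and 8.70 CPM with TP-472, with a change of −0.98 ± 0.29 (adjusted p = 0.0286). Vehicle replicate 2 and TP-472 replicate 4 nearly met, and the change was −0.67 (adjusted p = 0.0152) without vehicle replicate 3. The call was lost without vehicle replicate 1 or TP-472 replicate 1, 2 or 3, with adjusted p up to 0.0828. SEMA4G (ENSG00000095539.15, chr10:100969518-100985871) was at 4.20, 1.66, 7.80 and 1.82 CPM with vehicle and 1.01, 0.787, 1.13 and 1.19 CPM with TP-472, with a change of −1.91 ± 0.49 (adjusted p = 0.0165). Vehicle replicates 1 and 3 were well above replicates 2 and 4, and the change was −1.31 (adjusted p = 0.00785) without replicate 3. Without TP-472 replicate 2 the adjusted p was 0.0528. Exons of MRPL43 on the opposite strand cover 22.3% of the exon length of SEMA4G, so part of its count is uncertain if strand was not used.

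SEMA4C and SEMA4F were not called. SEMA4F, at 20.4 ± 1.94 CPM with vehicle and 15.1 ± 0.273 CPM with TP-472 (SD, n = 4 each), had a change of −0.44 ± 0.11 (adjusted p = 0.0154), and −0.41 (adjusted p = 0.00280) without vehicle replicate 3, and did not reach 1.5-fold, although its groups did not overlap. SEMA4C, a ligand of PLXNB2, was at 37.1 ± 7.19 CPM with vehicle and 28.6 ± 2.04 CPM with TP-472 (SD, n = 4 each), with a change of −0.38 ± 0.15 (adjusted p = 0.0711), and −0.24 (adjusted p = 0.0331) without vehicle replicate 3. SEMA4A fell under the limit on low values, with 16, 20, 63 and 10 counts with vehicle and 32, 30, 22 and 38 with TP-472 (exact permutation test, two-sided, p = 0.971), and vehicle replicate 3 was again the highest library.

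In class 6, whose transmembrane members bind plexins of class A, the expressed genes SEMA6B and SEMA6C fell. SEMA6B (ENSG00000167680.16, chr19:4542593-4559808) was at 3.70, 2.81, 8.11 and 2.80 CPM with vehicle and 2.01, 0.928, 1.58 and 1.0 CPM with TP-472, 3.15-fold lower, with a change of −1.65 ± 0.41 (adjusted p = 0.0147). The change was −1.17 (adjusted p = 0.00475) without vehicle replicate 3, and the groups stayed apart. SEMA6C (ENSG00000143434.15, chr1:151131685-151146664) was at 4.92, 3.53, 9.76 and 4.32 CPM with vehicle and 2.50, 2.31, 1.49 and 2.56 CPM with TP-472, with a change of −1.34 ± 0.34 (adjusted p = 0.0148), and −0.94 (adjusted p = 0.00351) without that library.

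The other genes of class 6 were near 0 with vehicle. SEMA6A had 0 counts in all 4 vehicle libraries and 3, 6, 5 and 6 with TP-472, at least 1.6-fold higher when 3 counts per vehicle library are taken as the floor (exact permutation test, two-sided, p = 0.0286, the lowest value the design permits). SEMA6D had 2, 0, 1 and 0 counts with vehicle and 7, 2, 7 and 6 with TP-472, a ratio of 6.99 with a 95% exact counting interval of 2.10 to 36.5 (exact permutation test, two-sided, p = 0.0286, and 0.0571 with total-count scaling). The groups met at 2 counts and were separate only after TMM scaling. These levels are a few reads in libraries of over 32574672, and intervals and floors cover counting error only. The class 5 genes were as low: SEMA5A had at most 2 counts in a library, and SEMA5B 0, 1, 1 and 3 with vehicle and 6, 2, 0 and 0 with TP-472 (exact permutation test, two-sided, p = 0.8).

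Among the tested semaphorins, SEMA7A was the one that rose. It is held at the membrane by a GPI anchor and signals through integrin β1 and PLXNC1. SEMA7A (ENSG00000138623.10, chr15:74409289-74433958) was at 2.54, 2.67, 4.22 and 2.44 CPM with vehicle and 4.75, 4.47, 5.01 and 5.48 CPM with TP-472, 1.66-fold higher, with a change of 0.73 ± 0.20 (adjusted p = 0.0227). The groups did not overlap, and vehicle replicate 3 was the vehicle library nearest to the TP-472 libraries. Without that library the change was larger, 0.95 (adjusted p = 2.20e-04), and after removal of the GC trend it was 1.08 (adjusted p = 2.11e-04). The call was lost without vehicle replicate 1 or 4 or TP-472 replicate 1, 3 or 4, with changes of at least 0.65 and adjusted p up to 0.0614. Of its receptors, PLXNC1 stayed under the limit on low values, with 35, 26, 28 and 22 counts with vehicle and 27, 31, 33 and 37 with TP-472 (exact permutation test, two-sided, p = 0.4). ITGB1 was abundant, at 1169.7 ± 383 CPM with vehicle and 1400.1 ± 32.8 CPM with TP-472 (SD, n = 4 each), with a change of 0.26 ± 0.24 (adjusted p = 0.410). Its change was 0.05 (adjusted p = 0.646) without vehicle replicate 3. The integrin gene ITGA1, listed here among semaphorin receptors, was under the limit and was not tested. It had 17, 8, 6 and 9 counts with vehicle and 41, 55, 35 and 49 with TP-472, without overlap.

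All 7 tested plexins had lower means with TP-472, where 7293 of all 14073 genes tested had a change below 0. All of them but PLXNA4 lie in the highest GC quartile, where the median log2 fold change over all genes was −0.41. PLXNA4, PLXNB1, PLXNB2 and PLXND1 passed the test, where 14.9% of all genes were called lower. PLXNA4 showed the largest change of the family. PLXNA4 (ENSG00000221866.9, chr7:132123332-132648688), a receptor for class 3 signals with neuropilins and for class 6 semaphorins directly, was at 4.75, 4.16, 7.19 and 3.42 CPM with vehicle. It was at 0.723, 0.562, 0.470 and 0.685 CPM with TP-472, 7.94-fold lower, with a change of −2.99 ± 0.28 (adjusted p = 1.88e-04). The lowest vehicle library was several times the highest TP-472 library, and the change was −2.74 (adjusted p = 6.55e-06) without vehicle replicate 3 and −2.89 (adjusted p = 1.82e-05) after removal of the GC trend.

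PLXNB2, the most abundant plexin, binds class 4 semaphorins. PLXNB2 (ENSG00000196576.15, chr22:50274979-50307627) was at 127, 104, 303 and 108 CPM with vehicle and 68.4, 66.4, 62.5 and 66.2 CPM with TP-472, 2.43-fold lower, with a change of −1.28 ± 0.33 (adjusted p = 0.0166). The 4 TP-472 libraries lay within a few CPM of each other, vehicle replicate 3 lay far above the rest, and without it the change was −0.78 (adjusted p = 3.75e-05). Without TP-472 replicate 3 the adjusted p was 0.0508. PLXND1 (ENSG00000004399.12, chr3:129555175-129606818), known from vessel patterning, was at 45.5, 26.8, 98.9 and 24.7 CPM with vehicle and 19.6, 18.4, 15.1 and 19.9 CPM with TP-472, with a change of −1.42 ± 0.41 (adjusted p = 0.0266). Vehicle replicates 1 and 3 were above replicates 2 and 4, and the change was −0.82 (adjusted p = 0.00600) without replicate 3. The call was lost without vehicle replicate 1 and without each TP-472 library in turn, with adjusted p up to 0.0777. PLXNB1 (ENSG00000164050.13, chr3:48403854-48430051), the receptor of SEMA4D, was at 21.0, 17.9, 35.6 and 19.6 CPM with vehicle and 16.6, 13.2, 14.3 and 13.8 CPM with TP-472, with a change of −0.70 ± 0.22 (adjusted p = 0.0342). It was called in 10 of 20 alternatives. The change was under 1.5-fold without vehicle replicate 3, at −0.43 (adjusted p = 0.00428), and after removal of the GC trend, at −0.29 (adjusted p = 0.0229), and the adjusted p was up to 0.0927 without vehicle replicate 1 or any 1 of the TP-472 libraries.

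PLXNA1, PLXNA3 and PLXNB3 were not called, although PLXNA3 and PLXNB3 were called in 5 alternatives each: DESeq2, no filter on low counts, removal of the GC trend, and without vehicle replicate 2 or 4. PLXNA1, at 74.0, 58.4, 162 and 66.3 CPM with vehicle and 69.7, 64.6, 59.2 and 67.3 CPM with TP-472, had a change of −0.47 ± 0.30 (adjusted p = 0.241). The TP-472 libraries lay among vehicle replicates 1, 2 and 4, and without replicate 3 the difference was −0.023 (adjusted p = 0.839). PLXNA3, at 40.0 ± 28.3 CPM with vehicle and 19.2 ± 1.10 CPM with TP-472 (SD, n = 4 each), had a change of −1.06 ± 0.40 (adjusted p = 0.0636), and −0.45 (adjusted p = 0.0308) without that library. PLXNB3, at 7.96 ± 6.94 CPM with vehicle and 3.12 ± 0.450 CPM with TP-472 (SD, n = 4 each), had a change of −1.35 ± 0.49 (adjusted p = 0.0590), and −0.53 (adjusted p = 0.0289) without it. Exons of SRPK3 on the same strand cover 20.4% of the exon length of PLXNB3, which makes its count uncertain. PLXNA2 was under the limit, with 11, 1, 16 and 3 counts with vehicle and 9, 11, 13 and 19 with TP-472 (exact permutation test, two-sided, p = 0.286).

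Of the neuropilins NRP2 rose, and NRP1 was lower by less than 1.5-fold. NRP1 (ENSG00000099250.18, chr10:33177492-33336262), co-receptor for SEMA3A and for VEGFA, was at 42.3, 41.9, 39.7 and 42.7 CPM with vehicle and 29.1, 29.3, 28.0 and 27.1 CPM with TP-472. It had a change of −0.55 ± 0.09 (adjusted p = 0.00228), and −0.58 (adjusted p = 3.84e-05) without vehicle replicate 3, which was close to the other vehicle libraries. After removal of the GC trend its change was −0.70 (adjusted p = 1.84e-04) and passed the fold limit. NRP2 (ENSG00000118257.16, chr2:205681990-205798133), co-receptor for SEMA3C, SEMA3F and VEGFC, was at 0.801, 0.401, 0.606 and 0.589 CPM with vehicle and 1.45, 2.11, 1.55 and 1.24 CPM with TP-472, 2.63-fold higher, with a change of 1.4 ± 0.26 (adjusted p = 0.00434). In counts these were 29, 14, 21 and 21 with vehicle and 56, 75, 56 and 47 with TP-472, without overlap, and the change was 1.4 (adjusted p = 0.00236) without vehicle replicate 3. Per kilobase of exon, NRP1 was 63.6 to 126 times the level of NRP2 in vehicle libraries and 16.7 to 26.4 times in TP-472 libraries.

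**Figure D2:**
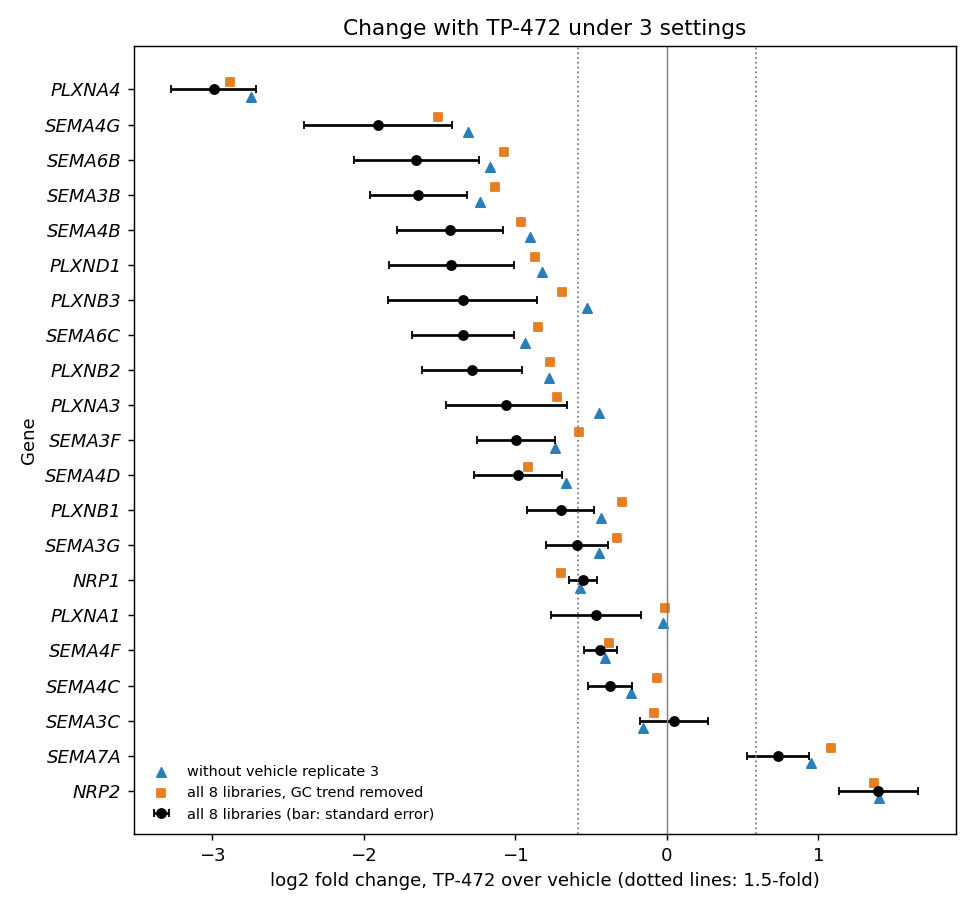
Log2 fold change (TP-472 over vehicle, x axis) of each tested member with all 8 libraries and its standard error (black), without vehicle replicate 3 (blue) and with the GC trend removed (orange). PLXNA4 is the lowest and NRP2 the highest in all 3, while PLXNA1 and SEMA3C lie near 0 in the blue and orange settings.

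Members near the limit of 1 CPM were NRP2 and SEMA3G inside it and PLXNC1 and SEMA4A outside it. PLXNC1 had a mean of 0.784 CPM with vehicle and 0.864 CPM with TP-472, and SEMA4A 0.779 and 0.820 CPM. Without vehicle replicate 3 the vehicle mean was 0.776 CPM for PLXNC1 and 0.432 CPM for SEMA4A. The 10 members under the limit were SEMA3A, SEMA3D, SEMA3E, SEMA4A, SEMA5A, SEMA5B, SEMA6A, SEMA6D, PLXNA2 and PLXNC1.

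Levels of different genes were compared as CPM per kilobase, with the combined length of a gene's annotated exons. SEMA3C led in both groups, at 71.7 with vehicle and 74.1 with TP-472. Next with vehicle came PLXNB2 at 22.1, SEMA4B at 12.7, PLXNA1 at 8.24 and SEMA4C at 6.03. With TP-472 the order was PLXNB2 at 9.08, PLXNA1 at 5.96, SEMA4B at 4.70 and SEMA4C at 4.64, with PLXNA1 and SEMA4B in exchanged places. SEMA4B and SEMA4C did not differ beyond their spread with TP-472. The order of PLXNA1 and SEMA4B rested on the length used: by the longest transcript SEMA4B was at 8.64 and PLXNA1 at 7.19 with TP-472. SEMA3C held 75.4%, 80.3%, 45.8% and 79.6% of the summed semaphorin level per kilobase with vehicle and 82.0%, 82.6%, 83.1% and 83.2% with TP-472. PLXNB2 held 49.6% to 53.0% of the summed plexin level with vehicle and 43.1% to 45.1% with TP-472, and PLXNA1 18.4% to 21.4% and 28.4% to 29.2%. In each of these shares the groups did not overlap, vehicle replicate 3 included.

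**Figure D3:**
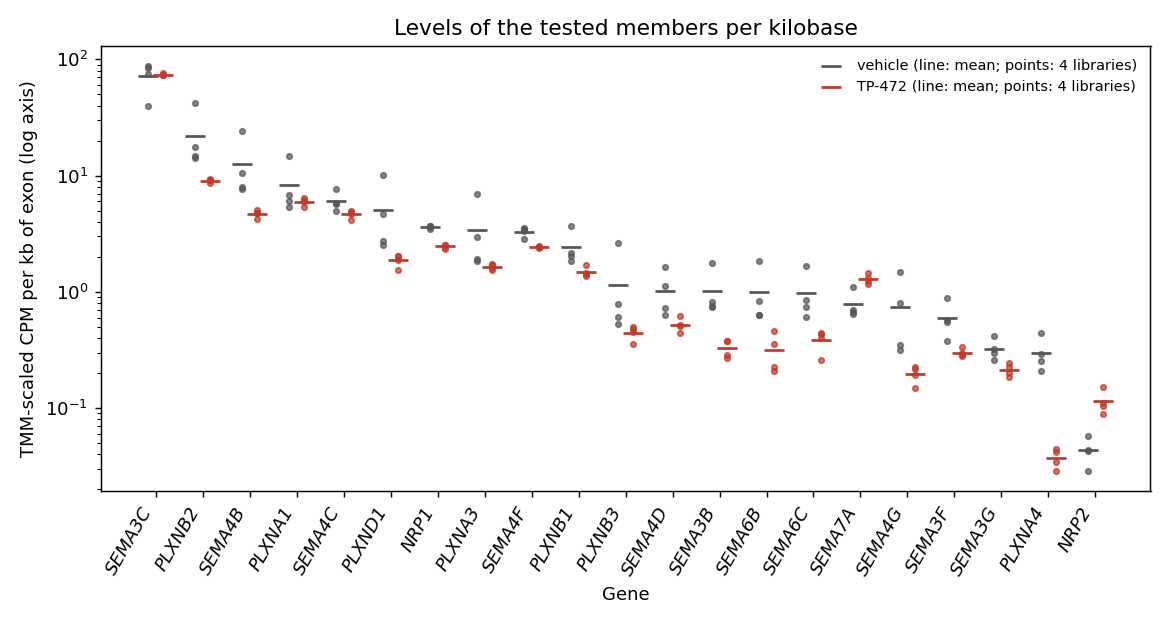
Level of each tested member as TMM-scaled CPM per kilobase of exon (log axis), ordered by the vehicle mean. Points are libraries and lines are group means. SEMA3C leads in both groups, and NRP2 is last with vehicle and PLXNA4 last with TP-472.

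Most tested members had a high GC content. Of the 21 tested, 15 lay in the highest GC quartile of all genes tested, above 56.2%, and their median was 60.5%, against 48.2% over all genes. NRP1, NRP2, PLXNA4, SEMA3C, SEMA4D and SEMA4F lay below that quartile, SEMA3C at 39.4% in the lowest one. In the highest quartile 25.6% of all genes were called lower and 6.16% higher, against 7.21% and 13.4% in the lowest quartile. The median log2 fold change over all genes was −0.41 in the highest quartile and 0.15 in the lowest. Over all genes with a GC value (13970, points that share the same 8 libraries) the Spearman correlation between GC content and log2 fold change was −0.32, and over the 21 members −0.53. SEMA7A stood against this trend with a GC content of 60.5%, and PLXNA4 at 53.7% lay far below genes of its composition. The part of GC content in the members' changes was not tested beyond the fit with the trend removed.

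**Figure D4:**
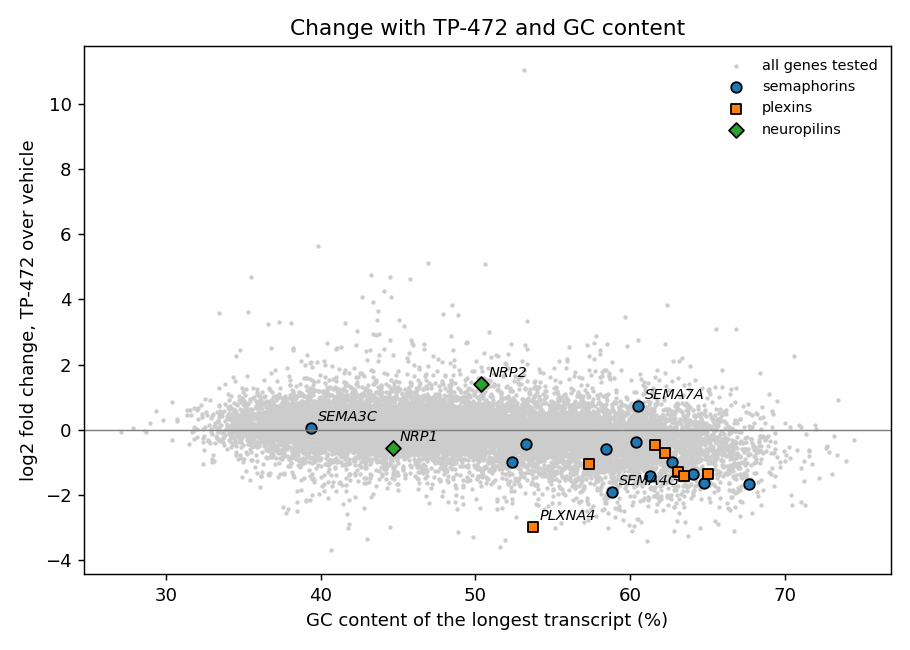
Log2 fold change (TP-472 over vehicle) against the GC content of the longest transcript for all genes tested (grey) and the 21 members. Most members sit at the right, above 56.2% GC, and below 0, with SEMA7A and NRP2 above 0.

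By position, chromosome 3 held 7 of the 31 members, of which 6 were tested and 5 were called lower, where 14.9% of all genes were: SEMA3B, SEMA3F, SEMA3G, PLXNB1 and PLXND1. Of these SEMA3G and PLXNB1 were not called without vehicle replicate 3. The other called members lay on chromosomes 1, 2, 7, 9, 10, 15, 19 and 22. SEMA4B and SEMA7A are both on chromosome 15 and moved in opposite directions.

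Genes that act with plexins and neuropilins were taken from a list of 55, of which 47 were tested. Of these 6 were called higher and 7 lower, where 12% and 14.9% of all genes were, and their median log2 fold change was 0.042. Without vehicle replicate 3 the counts were 8 and 4, where 12% and 13.4% of all genes were: DPYSL4 and FYN, a kinase of the Src family, were added to those called higher, and ARHGEF11, FURIN and MICAL1 were no longer called lower.

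The small GTP-binding proteins RND3 and RND1 rose. RND3, which binds plexins, was at 4.09, 5.07, 2.6 and 5.30 CPM with vehicle and 19.0, 17.4, 18.2 and 18.5 CPM with TP-472, 4.28-fold higher, with a change of 2.10 ± 0.21 (adjusted p = 2.60e-04), and 1.92 (adjusted p = 1.35e-06) without vehicle replicate 3. RND1, a partner of plexins of classes A and B, was at 1.27, 1.55, 1.85 and 1.4 CPM with vehicle and 3.79, 4.05, 5.51 and 4.11 CPM with TP-472, with a change of 1.52 ± 0.19 (adjusted p = 7.54e-04), and 1.63 (adjusted p = 7.01e-05) without it. The groups were far apart for both. RND2, at 19.6 ± 3.62 CPM with vehicle and 18.3 ± 1.34 CPM with TP-472 (SD, n = 4 each), had a change of −0.10 ± 0.15 (adjusted p = 0.636).

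Of the 5 collapsin response mediator proteins, which carry semaphorin signals to the cytoskeleton in neurons, 2 were called with all libraries, both higher, and 3 without vehicle replicate 3, where 12% of all genes were called higher in either fit. DPYSL3 rose by 1.35 (adjusted p = 3.86e-04) and CRMP1 by 1.20 (adjusted p = 0.0183). DPYSL3 was at 2.13 ± 0.259 CPM with vehicle and 5.44 ± 0.336 CPM with TP-472 (SD, n = 4 each), and CRMP1 at 1.06 ± 0.527 CPM with vehicle and 2.44 ± 0.334 CPM with TP-472 (SD, n = 4 each). Without vehicle replicate 3 the changes were 1.43 (adjusted p = 1.82e-05) for DPYSL3 and 1.58 (adjusted p = 2.37e-04) for CRMP1. In that fit CRMP1 was over 1 CPM in the TP-472 libraries alone, so it had to differ there. DPYSL2, the highest in CPM, was at 241 ± 24.0 CPM with vehicle and 182 ± 4.50 CPM with TP-472 (SD, n = 4 each), a change of −0.40 (adjusted p = 0.0149) that did not reach 1.5-fold. DPYSL4 (0.60, adjusted p = 0.120) and DPYSL5 (0.17, adjusted p = 0.639) were not called with all libraries. Without vehicle replicate 3, which had the highest vehicle value of DPYSL4, their changes were 1.01 (adjusted p = 1.42e-05) and 0.52 (adjusted p = 0.0120), and DPYSL4 was called. FYN changed by 0.59 (adjusted p = 1.84e-04) in that fit, just over 1.5-fold. RRAS2, a relative of the R-Ras proteins that plexins inactivate, was called higher at 0.84 and 0.66 without vehicle replicate 3. The neuropilin ligand PGF was the remaining one called higher, at 0.77 and 1.02 without that library.

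ERBB2, PTK7 and FARP1 fell. ERBB2, a partner of class B plexins, was at 105, 103, 156 and 103 CPM with vehicle and 67.8, 64.4, 64.2 and 62.3 CPM with TP-472, with a change of −0.85 ± 0.15 (adjusted p = 0.00330), and −0.68 (adjusted p = 1.04e-05) without vehicle replicate 3. PTK7, a pseudokinase that joins plexin complexes, was at 129, 121, 222 and 122 CPM with vehicle and 68.1, 70.8, 68.5 and 58.1 CPM with TP-472, with a change of −1.16 ± 0.21 (adjusted p = 0.00333), and −0.90 (adjusted p = 1.34e-05) without it. FARP1, an exchange factor that binds class A plexins, was at 40.3, 27.1, 49.98 and 26.5 CPM with vehicle and 19.1, 15.9, 17.6 and 24.2 CPM with TP-472, with a change of −0.91 ± 0.23 (adjusted p = 0.0160), and −0.71 (adjusted p = 0.00693) without it. The vehicle and TP-472 libraries did not overlap for any of these 3 genes, as for 22 of the 47 tested partners and 45.4% of all genes. The related exchange factors ARHGEF12 (−0.31, adjusted p = 0.0562), FARP2 (0.06, adjusted p = 0.620) and TIAM1 (0.13, adjusted p = 0.476) were not called. Without vehicle replicate 3 their changes were −0.38 (adjusted p = 0.00102), 0.06 (adjusted p = 0.455) and 0.28 (adjusted p = 0.00696), all under 1.5-fold.

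The called decreases of other partners were under 1.5-fold without vehicle replicate 3. ARHGEF11, an exchange factor that binds class B plexins, was at 104, 85.0, 172 and 87.3 CPM with vehicle and 69.6, 62.9, 59.4 and 69.1 CPM with TP-472, a change of −0.78 with all libraries and −0.50 without that one. MICAL1, an oxidoreductase that disassembles actin downstream of class A plexins, was at 37.0, 36.5, 57.2 and 35.5 CPM with vehicle and 26.6, 26.7, 27.1 and 23.9 CPM with TP-472, a change of −0.67 and −0.48. FURIN, the protease that processes class 3 semaphorins, had a change of −1.0 and −0.48. VEGFB, a ligand of NRP1 and FLT1, was the exception that kept its call, at −1.48 and −0.75. Over all fits that left out 1 library, the highest adjusted p was 0.0933 for VEGFB, 0.104 for FURIN, 0.0885 for PGF, 0.0728 for ARHGEF11, 0.0551 for CRMP1 and 0.0528 for FARP1, so these 6 calls were each lost in at least 1 of them. MET, the receptor kinase that pairs with PLXNB1, was at 371 ± 60.8 CPM with vehicle and 462 ± 27.7 CPM with TP-472 (SD, n = 4 each), with a change of 0.32 ± 0.14 (adjusted p = 0.102). Its change was 0.20 (adjusted p = 0.0287) without vehicle replicate 3.

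VEGFA and the VEGF receptors were not called or were under the limit. FLT1 had 0, 2, 2 and 7 counts with vehicle and 25, 18, 37 and 43 with TP-472, without overlap but under the limit on low values. KDR had 0, 0, 0 and 0 with vehicle and 0, 3, 1 and 0 with TP-472. VEGFA was at 38.6 ± 8.46 CPM with vehicle and 46.8 ± 2.05 CPM with TP-472 (SD, n = 4 each), with a change of 0.28 ± 0.15 (adjusted p = 0.170). Without vehicle replicate 3 the change of VEGFA was 0.44 (adjusted p = 3.57e-04), still under 1.5-fold. FLT4 was at 13.2 ± 6.94 CPM with vehicle and 8.18 ± 0.179 CPM with TP-472 (SD, n = 4 each), with a change of −0.69 ± 0.30 (adjusted p = 0.0979). Its change was −0.25 (adjusted p = 0.0347) without vehicle replicate 3.

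**Figure D5:**
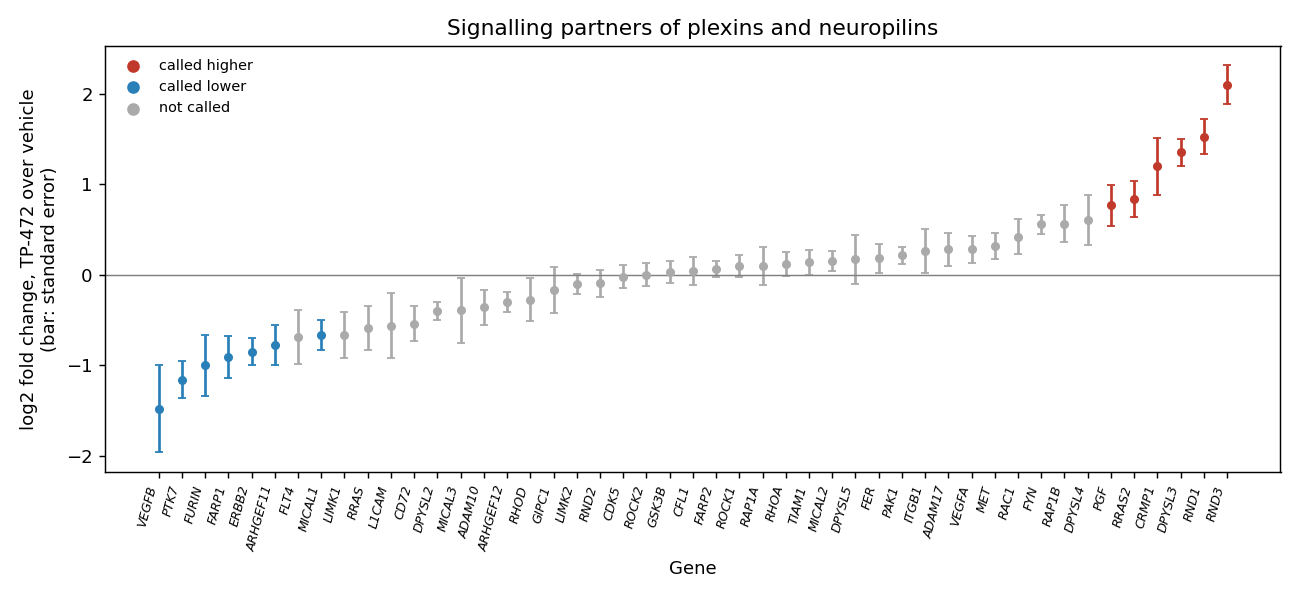
Log2 fold change (TP-472 over vehicle) with standard error for the 47 tested partners of plexins and neuropilins, ordered by size. The 6 called higher (red) lead with RND3 and RND1 on the right, and the 7 called lower (blue) with VEGFB and PTK7 on the left.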

How the data were processed

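The authors aligned reads with STAR and quantified transcripts on GRCh38 with Salmon (1.4.0 in the submitters' processing notes), then summed them to genes with tximport and GENCODE annotation. The deposited values are estimated counts, neither normalized nor filtered, and were rounded to whole numbers here. The paper describes strand-specific libraries, while the sample description names another kit of the same maker, so the use of strand was not settled. The columns of the control group were read as the vehicle replicates of the same number.

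All tests across genes used edgeR 4.0.16 (R 4.3.3), quasi-likelihood F test, on genes with over 1 CPM in at least 4 of 8 libraries, with TMM factors, no covariate and Benjamini-Hochberg adjustment. Members under this limit were tested by an exact permutation test over 70 assignments, except SEMA3E and SEMA5A, whose counts were too low for it. The members, lists and tests were chosen with earlier results of these data known. All members are accounted for, called ones by library. Named partners are the called ones that bind plexins or neuropilins directly and the 3 largest other changes each way, and ones named beyond that were chosen after their values were seen. DESeq2 1.42.0, limma 3.58.1 and other scalings, filters and designs were alternatives. The fit was tested on simulated data. GC content came from each gene's longest GENCODE 29 transcript, for 99.3% of genes tested. No library copied another (lowest mean chi-square 11.2, near 1 for pairs that differ by counting error alone and lower for exact copies).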

Additional observations from a re-analysis of the deposited data

Results flagged for a closer look

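Vehicle replicate 3 was far from the other vehicle libraries for 6 tested members, each time on the high side, with a gap to the next library of over 0.829 of the group's range. Of 42 groups of 4 libraries examined these 6 stood out, and no other library did. Chance gives about 1 in 20 for a single group, but these groups are genes of the same 8 libraries and not independent, so that rate is no test of the pattern. PLXNB2 was at 303 CPM in that library, against 104 to 127 in the other vehicle libraries. PLXNA1 was at 162 CPM, against 58.4 to 74.0. PLXNB3 was at 18.3 CPM, against 3.73 to 5.55. SEMA3B was at 10.2 CPM, against 4.23 to 4.70. SEMA6B was at 8.11 CPM, against 2.80 to 3.70. SEMA7A was at 4.22 CPM, against 2.44 to 2.67, which brought it nearer to the TP-472 libraries, while for the others it raised the vehicle mean away from them.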

How the results depend on the processing

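Leaving out 1 library at a time gave 8 to 15 called members (1 to 2 higher, 6 to 14 lower), 7 to 14 called partners (4 to 8 higher, 3 to 8 lower) and 2690 to 4223 called genes in all (1303 to 1824 higher, 1387 to 2399 lower). Each TP-472 library left out gave 8 to 10 members, and without vehicle replicate 1 it was 9. With a CPM limit of 5, 11 members were tested and 5 were called, 0 higher and 5 lower, with 3 partners called higher, where 24.1% of all genes were called, since fewer genes were tested. The test against a 1.5-fold change called 3 members (1 higher, 2 lower), 4 partners (3 higher, 1 lower) and 1123 genes (529 higher, 594 lower). DESeq2 called 2678 genes higher and 16 members, where 23.8% of all genes were called. The fit with no filter on low counts also called 16 members, where 15.3% of all genes were called. SEMA6A was among the members called in both. The sample titles number the replicates but do not say whether they were paired between groups. Same-numbered libraries deviated with correlations of −0.22 to 0.11, and none correlated best with its own number. These correlations cannot settle pairing, since vehicle replicate 3 with its GC trend enters them and pairs may be numbered otherwise. With the replicate block 9 members were called, 7 of them lower, with 4 partners lower, where 21.7% of all genes were called. Removing the GC trend together with vehicle replicate 3 left 4 partners called lower. The cause of these shifts was not tested. SEMA3C turned from 0.047 to −0.086 with the GC trend removed and −0.077 with that and the block. It was at −0.15 without vehicle replicate 3 and up to 0.16 without vehicle replicate 2. With vehicle replicate 3 left out and the GC trend removed, SEMA3C was at −0.17 (adjusted p = 0.0312), under 1.5-fold. PLXNA1 turned to 0.092 in that last fit. SEMA6D had an exact permutation p of 0.0571 on total-count scaling. Using the longest transcript as length put SEMA4B at 23.3 CPM per kilobase with vehicle. The other scalings, limma-voom, looser filters and unrounded counts gave 13 to 16 called members, where 15.3% to 27.2% of all genes were called.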
